A study of Mus musculus with 8 samples.

Results

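The 9 genes described here are marker genes of cortical excitatory neurons: *Slc17a7*, *Camk2a*, *Nrgn*, *Neurod6*, *Neurod2*, *Tbr1*, *Fezf2*, *Cux2*, and *Rorb*. They were chosen by symbol, as 9 of the 25239 gene symbols measured, and all 9 passed the filter on low values (a mean of 0.1 CPM, the normalised read count scaled to the library size) that left 18123 genes for testing. RNA of the corpus callosum, the large fiber tract that joins the cerebral hemispheres, was sequenced in 8 libraries from male C57BL/6J mice aged 8 to 12 weeks. The mice carried the label wild type (WT) or TRPA1-knockout (TRPA1-KO), a deletion of the cation channel gene *Trpa1* in a line backcrossed to C57BL/6J for at least 10 generations. They underwent bilateral common carotid artery stenosis (BCAS), in which microcoils around both carotid arteries lower cerebral blood flow, or a sham operation with the same anesthesia and no coils. Each label had 1 sham library, collected on day 14, and 3 BCAS libraries, collected on days 7, 10, and 14. No day had a second library of the same kind, so the days served as the replicates of a label. The p-values set differences against the spread between libraries within a group, and that spread includes any differences between days.

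Excitatory neurons of the cerebral cortex release glutamate, and their cell bodies lie in the gray matter above the corpus callosum. Those that connect the hemispheres send their axons through this tract. They load synaptic vesicles with a vesicular glutamate transporter, and distinct transcription factors mark the cortical layers they occupy. White matter consists mainly of these axons and of glia, and the messenger RNA of most neuronal genes lies in the cell body, although *Camk2a* and *Nrgn* messenger RNAs are also carried into dendrites. In bulk RNA, fewer cells of a type and less RNA per cell cannot be told apart.

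The deleted gene was examined first. With the WT label, *Trpa1* had 1 read in sham and 0 reads in each of the 3 BCAS libraries. With the TRPA1-KO label, it had 10 reads in sham and 11, 3, and 7 reads in BCAS on days 7, 10, and 14. A count of 0 allows up to 3 reads, which corresponded to 0.267, 0.378, and 0.329 CPM in the WT-labelled BCAS libraries of days 7, 10, and 14. The reads stood on the side opposite to the labels, at levels of at most 1.22 CPM, and the counts are for the whole gene and do not tell which exons they came from. The libraries are therefore named by their labels throughout, and directions between labels are directions between labelled libraries.

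The tissue label was set beside marker genes of oligodendrocytes, the cells that form myelin. Per kb of exon, the mean level of the myelin gene *Mbp* was 696 ± 82.6 CPM per kb (SD, n = 8). It was present in every library. The neuronal genes were present in every library too, and reads of the 9 genes made up between 0.479% (95% Clopper-Pearson interval 0.475 to 0.484, for the TRPA1-KO-labelled BCAS library of day 14) and 0.616% (0.611 to 0.621, for the WT-labelled BCAS library of day 14) of all reads. These intervals and the floor of 3 reads cover counting error only. Library depth ran from 7896071 to 12952093 reads.

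Upstream bases are shown for *Slc17a7* and *Neurod6*, which were both lowest in the same library and whose windows of 250 bases before the RefSeq start site overlapped no annotated exon. They come from the RefSeq promoter table of GRCm38.p6. Capitals mark every match to CANNTG, the E-box bound by basic helix-loop-helix factors, a family that includes *Neurod2* and *Neurod6*. The letters read the same way as a class on both strands. The *Slc17a7* window is chr7:45163671-45163920 on the plus strand, and the *Neurod6* window is chr6:55681264-55681513 on the minus strand, each written 5′ to 3′.
Slc17a7: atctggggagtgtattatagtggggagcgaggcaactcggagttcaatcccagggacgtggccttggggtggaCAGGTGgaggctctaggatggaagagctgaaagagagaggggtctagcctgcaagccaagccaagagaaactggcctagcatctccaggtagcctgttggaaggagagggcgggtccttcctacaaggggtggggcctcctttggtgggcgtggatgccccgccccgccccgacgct
Neurod6: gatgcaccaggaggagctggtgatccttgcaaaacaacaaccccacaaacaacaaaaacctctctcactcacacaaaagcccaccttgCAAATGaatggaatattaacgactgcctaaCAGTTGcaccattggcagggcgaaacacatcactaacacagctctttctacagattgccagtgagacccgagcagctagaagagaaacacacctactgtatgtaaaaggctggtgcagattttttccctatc
The *Slc17a7* match, CAGGTG, began 177 bases before the start site, and the *Neurod6* matches, CAAATG and CAGTTG, began 162 and 132 bases before it. Promoter windows were found for 8 of the 9 genes, 10 windows in all, and CANNTG occurred in 8 of those 10 windows (80.0%), against 66.2% of all 32851 windows of this length. The letters CAGATG or CATCTG, which are contained in the CANNTG class, occurred in 3 of the 10 windows (those of *Cux2*, *Neurod2*, and *Nrgn*), against 14.4% of all windows. CAGCTG, another form of the class, occurred in 0 of the 10 and in 13% of all windows. A match describes the letters only.

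Levels of the 9 genes differed widely per length. *Nrgn*, which encodes neurogranin, a calmodulin-binding protein of dendritic spines, had the highest level, 994 ± 269 CPM per kb (SD, n = 8), and ranked between 7th and 20th of 17634 genes depending on the library. *Camk2a*, the alpha subunit of a calcium/calmodulin-dependent kinase of excitatory synapses, had 310 ± 21.2 CPM per kb. *Slc17a7*, the vesicular glutamate transporter VGLUT1, had 222 ± 19.6 CPM per kb. The ranges of these 3 genes did not overlap, so their order held in every library.

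The transcription factor genes were lower. *Tbr1*, a T-box factor of deep-layer neurons, had 34.3 ± 3.66 CPM per kb, *Neurod6* had 32.1 ± 5.26, and *Neurod2* had 30.7 ± 2.91 (SD, n = 8). Ranges of these 3 neighbors overlapped, from 20.9 to 39.8 CPM per kb between them, so their order was not fixed across libraries. *Fezf2*, a zinc-finger factor of subcerebral projection neurons in the deep layers, had 13.6 ± 1.89 CPM per kb and overlapped with no other gene of the group. *Cux2*, a homeobox factor of upper-layer neurons, had 3.79 ± 0.396 CPM per kb, and *Rorb*, an orphan nuclear receptor of layer 4 neurons that is also expressed in astrocytes, had 2.78 ± 0.309. The ranges of *Cux2* (3.07 to 4.14 CPM per kb) and *Rorb* (2.42 to 3.28) overlapped.

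**Figure D1:**
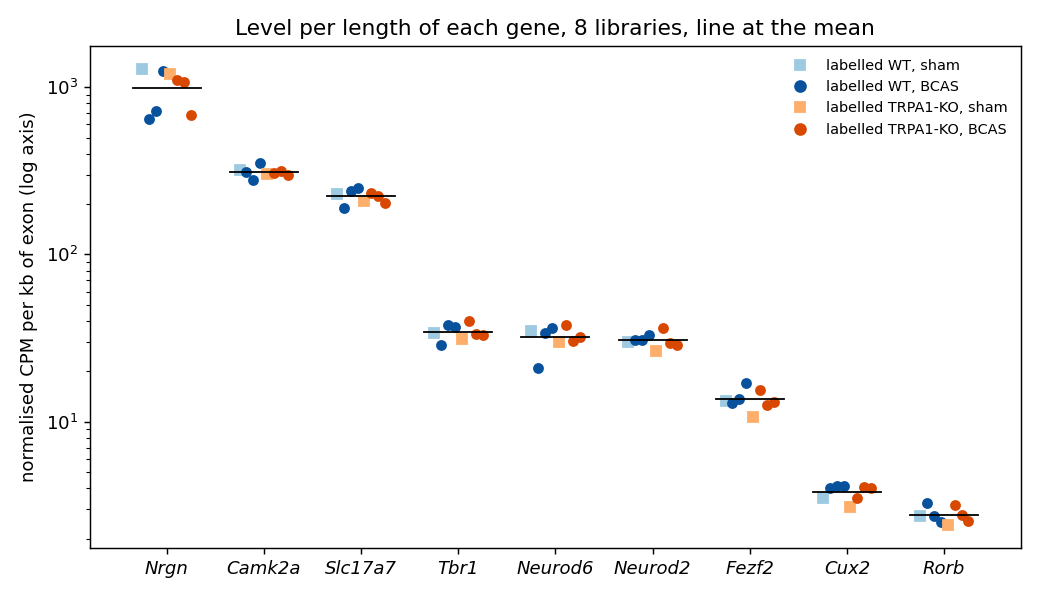
Level of each of the 9 genes per kb of exon (vertical log axis, normalised CPM per kb) in the 8 libraries, 1 point per library, with a line at the mean. *Nrgn*, *Camk2a*, and *Slc17a7* stand apart from each other at the top, *Tbr1*, *Neurod6*, and *Neurod2* overlap near 30.7 to 34.3 CPM per kb, and *Rorb* is lowest.

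Values of single libraries follow by role, starting with glutamate transport and the synapse. *Slc17a7* (chr7:45163921-45176139, plus strand, GRCm38) had 1233 CPM in the WT-labelled sham library and 1024, 1283, and 1349 CPM in the WT-labelled BCAS libraries of days 7, 10, and 14. In the TRPA1-KO-labelled libraries it had 1131 CPM in sham and 1251, 1205, and 1101 CPM in BCAS. The WT-labelled BCAS library of day 7 was the lowest of the 8 and that of day 14 the highest, and the BCAS values of each label spanned both sham values.

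*Camk2a* was the steadiest of the 9 genes, with a coefficient of variation of 6.84% over the 8 libraries. It had 2401 CPM in WT-labelled sham and 2319, 2076, and 2625 CPM in WT-labelled BCAS on days 7, 10, and 14. The TRPA1-KO-labelled libraries had 2249 CPM in sham and 2304, 2344, and 2217 CPM in BCAS. All groups overlapped. MicroRNA genes lie within *Camk2a* (Mir6982 and Mir7220) and *Slc17a7* (Mir7055) on the same strand, and polyadenylated reads of host and microRNA gene cannot be told apart there.

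*Nrgn* (chr9:37544493-37552745, minus strand) varied most, with a coefficient of variation of 27.1% and a highest value 2.0 times the lowest. In WT-labelled libraries it had 1873 CPM in sham and 937, 1044, and 1815 CPM in BCAS on days 7, 10, and 14. In TRPA1-KO-labelled libraries it had 1743 CPM in sham and 1594, 1557, and 986 CPM in BCAS. The values fell into a low cluster of 3 BCAS libraries (WT label on days 7 and 10, TRPA1-KO label on day 14) and a high cluster of the other 5 libraries, with no value between 1044 and 1557 CPM. The ratio of *Nrgn* to *Camk2a* in CPM was 0.404, 0.503, and 0.445 in the 3 low libraries and 0.664 to 0.780 in the other 5.

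The basic helix-loop-helix factor genes come next. *Neurod6* (chr6:55677818-55681263, minus strand), a gene of cortical and hippocampal excitatory neurons, had 74.7 CPM in WT-labelled sham and 45.0, 73.2, and 78.6 CPM in WT-labelled BCAS on days 7, 10, and 14. It had 64.5 CPM in TRPA1-KO-labelled sham and 81.0, 65.6, and 69.0 CPM in BCAS of that label. Apart from the WT-labelled BCAS library of day 7, no library was below 64.5 CPM. *Neurod2* (chr11:98325415-98329645, minus strand), a factor of excitatory neuron differentiation, had 94.4 CPM in WT-labelled sham and 97.0, 97.3, and 103 CPM in WT-labelled BCAS. With the TRPA1-KO label it had 83.0 CPM in sham and 114, 92.4, and 90.8 CPM in BCAS on days 7, 10, and 14. The 3 WT-labelled BCAS values lay above both sham values, and the TRPA1-KO-labelled BCAS values overlapped with them.

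Of the deep-layer factor genes, *Tbr1* (chr2:61802863-61814114, plus strand) had 186 CPM in WT-labelled sham and 157, 207, and 203 CPM in WT-labelled BCAS on days 7, 10, and 14. It had 171 CPM in TRPA1-KO-labelled sham and 218, 184, and 181 CPM in BCAS of that label. Its lowest and highest values were both of day 7, with the WT label and the TRPA1-KO label. *Fezf2* (chr14:12338992-12346803, minus strand) had 40.8 CPM in WT-labelled sham and 39.7, 41.5, and 51.8 CPM in WT-labelled BCAS. It had 32.5 CPM in TRPA1-KO-labelled sham, the lowest of the 8, and 47.0, 38.4, and 40.1 CPM in BCAS of that label. Both BCAS groups overlapped with sham.

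Of the upper-layer and layer 4 genes, *Cux2* (chr5:121857962-122050415, minus strand) had 35.1 CPM in WT-labelled sham and 31.0 CPM in TRPA1-KO-labelled sham. It had 40.5, 41.5, and 41.7 CPM in WT-labelled BCAS on days 7, 10, and 14, and 35.1, 40.8, and 40.5 CPM in TRPA1-KO-labelled BCAS. All WT-labelled BCAS values were above both sham values, whereas the TRPA1-KO-labelled value of day 7 (315 reads) fell just under the WT-labelled sham value. Antisense genes (*Gm15637* and *Gm3970*) overlap *Cux2* on the other strand, and without a stated strand setting their reads cannot be told apart from its own. *Rorb* (chr19:18930609-19111196, minus strand) had 30.3 CPM in WT-labelled sham and 36.4, 30.3, and 28.0 CPM in WT-labelled BCAS. It had 26.8 CPM in TRPA1-KO-labelled sham and 35.3, 30.6, and 28.4 CPM in BCAS of that label. *Rorb* was highest on day 7 with both labels, in 1 library each.

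**Figure D2:**
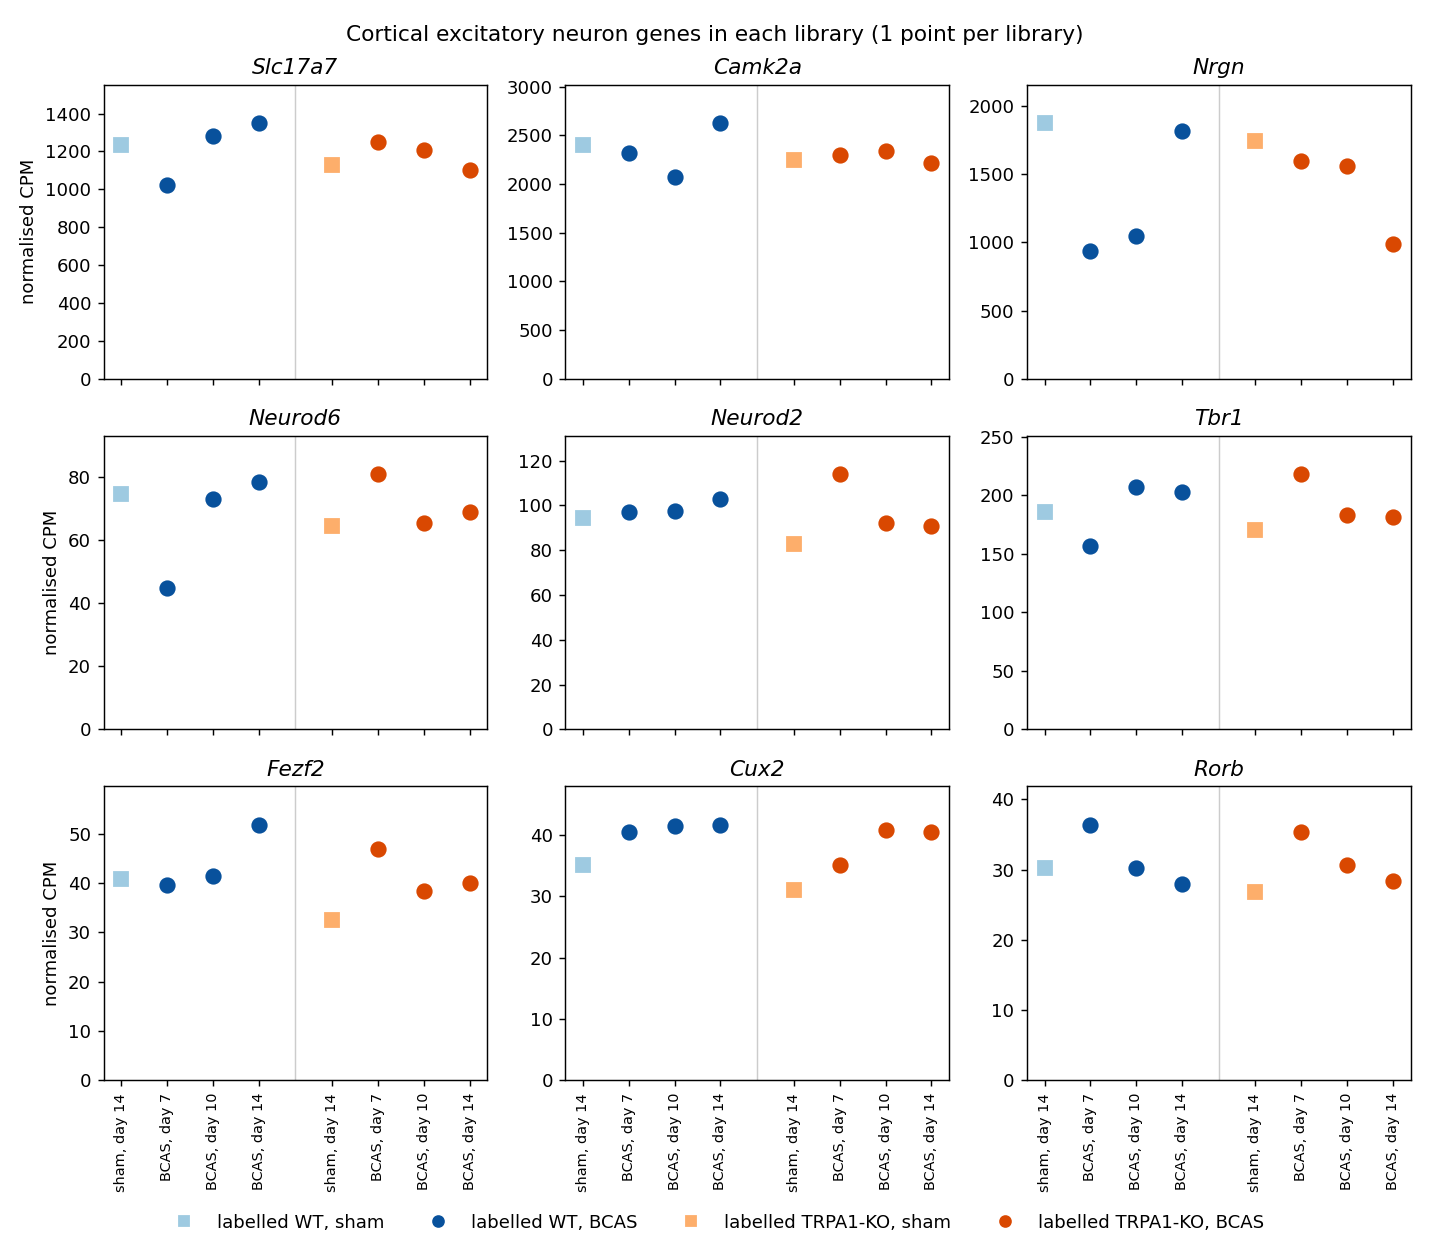
Normalised CPM of each gene (vertical axes, starting at 0) in the 8 libraries, 1 point per library, with squares for sham, circles for BCAS, and colors for the genotype label. *Nrgn* is at 937 to 1044 CPM in 3 BCAS libraries of both labels, *Neurod6* at 45.0 CPM in 1 library, and the other 7 genes span at most 1.59-fold.

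Counting error was smaller than the spread between libraries for every gene. The least covered value was that of *Rorb* with 240 reads, which gives a counting error of 6.45% against a coefficient of variation of 11.1%. The highest value exceeded the lowest by 1.37-fold for the median gene of the 9, and by 1.25-fold for the median of the 6832 genes no less abundant than *Rorb*.

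The study's main contrast set BCAS libraries labelled WT against those labelled TRPA1-KO, as averages of days 7, 10, and 14. Levels of the 9 genes differed little between the labels. The log2 differences ran from -0.16 for *Neurod6* to 0.09 for *Cux2*, with 6 of the 9 genes higher with the WT label. The median was 0.0075, and over all 18123 genes it was 0.0010. With each library left out in turn the median ran from -0.051 to 0.080. The genes higher with the WT label numbered from 2, without its library of day 14, to 8, without its library of day 7. The difference of *Cux2* ran from 0.020, without the TRPA1-KO-labelled library of day 7, to 0.13, without that of day 10. *Neurod6* averaged 65.6 ± 18.0 CPM with the WT label and 71.9 ± 8.13 CPM with the TRPA1-KO label (SD, n = 3 each), and *Slc17a7* averaged 1219 ± 171 and 1186 ± 77.0 CPM. By limma, 0 of the 9 genes had an unadjusted p under 0.05 (4.2% of all genes tested) and 0 had an adjusted p under 0.05 (0.0166% of all genes). edgeR's quasi-likelihood test and DESeq2 on the recovered reads also gave 0 of 9 at both thresholds. At the unadjusted threshold 5.24% and 3.28% of all genes passed with these 2 methods. In 0 of the 9 genes were the 3 values of each label separate (9.21% of all genes tested). The smallest adjusted p was 0.98, and exact two-sided permutation p-values started at 0.30, where 3 against 3 libraries cannot go below 0.10. Without the WT-labelled BCAS library of day 14, *Nrgn* differed by -0.45 (SE 0.20, limma adjusted p = 0.49), so that 1 of 9 had an unadjusted p under 0.05, where 10.2% of all genes did, and the genes of the whole table with an adjusted p under 0.05 numbered 29 in place of 3.

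The differences between the labels were also taken day by day. On day 7, 3 of the 9 genes were higher with the WT label and the median log2 difference of WT-labelled minus TRPA1-KO-labelled libraries was -0.24. On day 10, 6 genes were higher and the median was 0.07, and on day 14, 8 genes were higher and the median was 0.19. *Nrgn* differed by -0.77 on day 7, -0.58 on day 10, and 0.88 on day 14, and *Slc17a7* by -0.29, 0.09, and 0.29. Each of these values compares 1 library with 1 library and carries no test.

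BCAS libraries labelled WT were also set against both sham libraries as 1 group, as the study averaged them. *Cux2* was 41.2 ± 0.654 CPM (SD, n = 3) in BCAS and 33.1 ± 2.94 CPM (n = 2) in sham, a log2 difference of 0.31 (SE 0.10, limma adjusted p = 0.87). *Fezf2* differed by 0.27 (SE 0.14), *Neurod2* by 0.16 (SE 0.10), and *Nrgn* by -0.58 (SE 0.27, limma adjusted p = 0.91). *Camk2a* and *Slc17a7* stood at 0.0035 and 0.04. Of the 9 genes, 7 were higher in BCAS and the median difference was 0.07, against -0.0012 over all genes. Leaving out the TRPA1-KO-labelled sham library gave 5 of 9 higher and a median of 0.013, with *Fezf2* at 0.11 and *Neurod2* at 0.068, and leaving out the WT-labelled one gave 7 of 9, with *Fezf2* at 0.43 and *Neurod2* at 0.25. Without the WT-labelled BCAS library of day 14 *Fezf2* was at 0.15. Over all libraries left out in turn the median ran from 0.013 to 0.16. At an unadjusted p under 0.05, limma counted 1 of 9 (*Cux2*), against 5.45% of all genes tested. By limma and by edgeR 0 genes of the whole table passed an adjusted p of 0.05 (0%), and by DESeq2 24 did, of which 0 were among the 9. Values did not overlap with sham in 2 of 9, *Neurod2* and *Cux2*, both higher, against 19.9% of all genes. Exact permutation of 3 against 2 libraries cannot give less than 0.20, which both reached. The count for *Cux2* rested on the TRPA1-KO-labelled sham library, and without it the difference of 0.22 did not have an unadjusted p under 0.05. Leaving out the WT-labelled BCAS library of day 14 gave *Nrgn* a difference of -0.87 (SE 0.20, limma adjusted p = 0.10), which then also counted at the unadjusted threshold, and left *Cux2* at 0.30. In that fit 2 of 9 counted, where 11.1% of all genes did. *Cux2* and *Fezf2* counted without WT-labelled sham (4.11% of all genes) and without the WT-labelled BCAS library of day 7 (5.29%), and *Cux2* and *Nrgn* without the TRPA1-KO-labelled BCAS library of day 14 (5.29%).

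For BCAS libraries labelled TRPA1-KO, set against the same 2 sham libraries, *Cux2* differed by 0.22 (SE 0.10, limma adjusted p = 1.0), *Fezf2* by 0.19 (SE 0.14), and *Neurod2* by 0.15 (SE 0.10). *Nrgn* was lower in all 3 BCAS libraries than in both sham libraries, 1379 ± 341 CPM (SD, n = 3) against 1808 ± 91.9 CPM (n = 2), with a log2 difference of -0.42 (SE 0.27). Again 7 of the 9 genes were higher in BCAS, with a median of 0.12 against -0.0021 over all genes. Leaving out the TRPA1-KO-labelled sham library gave 5 of 9 and a median of 0.031, with *Fezf2* at 0.031 and *Neurod2* at 0.061, and leaving out the BCAS library of day 7 gave 5 of 9 and 0.035, with *Fezf2* at 0.11 and *Neurod2* at 0.049. Leaving out WT-labelled sham gave 8 of 9 and a median of 0.18, with *Fezf2* at 0.35 and *Neurod2* at 0.25, and these medians, 0.031 and 0.18, were the lowest and highest over all libraries left out in turn. By limma, 1 of 9 had an unadjusted p under 0.05 (2.74% of all genes tested) and 0 an adjusted p under 0.05 (0.00552% of all genes). edgeR also counted 1 of 9 (2.85% of all genes), and DESeq2 counted 0 (1.4% of all genes), both with 0 of the 9 after adjustment. Values were separate from sham in 1 of 9, *Nrgn*, against 18.6% of all genes. *Cux2* lost its unadjusted p under 0.05 without the TRPA1-KO-labelled sham library (difference 0.14), without the BCAS library of day 10 (0.19) or day 14 (0.19), and also without the WT-labelled BCAS library of day 10 or 14, which changes only the estimate of spread. Without the WT-labelled BCAS library of day 14, *Nrgn* (-0.42, SE 0.18) had an unadjusted limma p under 0.05 in place of *Cux2*. In that fit 3.27% of all genes did. Without the TRPA1-KO-labelled BCAS library of day 14, the *Nrgn* difference was -0.20. Both comparisons share their sham libraries, so their common direction is not independent.

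**Figure D3:**
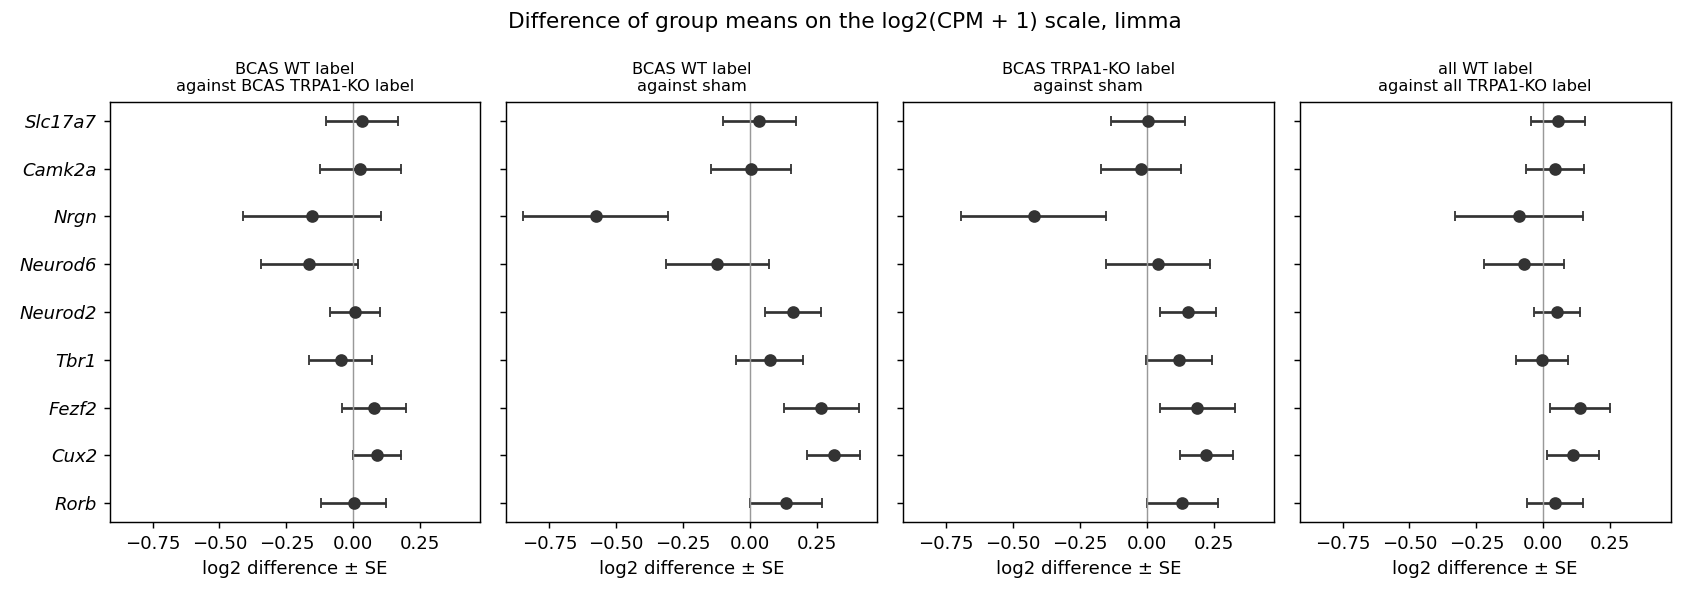
Log2 difference of the group means (horizontal axis, log2(CPM + 1) scale) with its SE from limma for each gene in the 4 comparisons, positive where the first-named group is higher. Differences between the labels lie between -0.16 and 0.14, and the differences furthest from 0 are those of *Nrgn* against sham, at -0.58 and -0.42.

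All 4 libraries labelled WT against all 4 labelled TRPA1-KO gave a median difference of 0.04 over the 9 genes, with 6 higher, from -0.09 for *Nrgn* to 0.14 for *Fezf2*. Leaving out 1 library moved the median to between 0.0031, without TRPA1-KO-labelled sham (5 higher), and 0.087, without the TRPA1-KO-labelled BCAS library of day 7 (8 higher). With limma, 0 of the 9 had an unadjusted p under 0.05 (3.94% of all genes tested) or an adjusted p under 0.05 (0.0497% of all genes). edgeR and DESeq2 gave 0 as well, where 4.76% and 3.44% of all genes had an unadjusted p under 0.05. None of the 9 had separate values (2.46% of all genes). The smallest exact permutation p was 0.26, in a design that can reach 0.0286. Without the TRPA1-KO-labelled BCAS library of day 7, 1 of the 9 passed an unadjusted p of 0.05 (*Neurod2*, 0.14, SE 0.06, limma adjusted p = 0.96), where 4.54% of all genes did.

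The genes did not all follow the same course over the 8 libraries. Pearson's correlation of a gene with the mean of the other 8, given as a description over 8 libraries that share their normalization, was 0.86 for *Slc17a7*, 0.78 for *Tbr1*, 0.73 for *Fezf2*, 0.66 for *Neurod6*, and 0.65 for *Neurod2*. It was 0.48 for *Camk2a*, 0.27 for *Nrgn*, -0.06 for *Cux2*, and -0.14 for *Rorb*. The ratio of *Tbr1* to *Cux2* in CPM was lowest in the WT-labelled BCAS library of day 7 (3.88) and highest in the TRPA1-KO-labelled one of that day (6.22), and was 5.29 and 5.51 in the WT-labelled and TRPA1-KO-labelled sham libraries.

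Over all 9 genes, the mean log2 deviation from each gene's own mean was lowest in the WT-labelled BCAS library of day 7 (-0.15) and in TRPA1-KO-labelled sham (-0.11), and highest in the WT-labelled BCAS library of day 14 (0.17). The WT-labelled BCAS library of day 7 was the lowest of the 8 for *Slc17a7*, *Neurod6*, *Tbr1*, and *Nrgn*, and TRPA1-KO-labelled sham was the lowest for the 4 genes *Neurod2*, *Rorb*, *Cux2*, and *Fezf2*. Among the 10735 other genes that averaged 10 CPM or more, the profiles most like this mean were those of *Zc3h7b* (Pearson's r = 0.99 over 8 libraries), *6430548M08Rik* (0.98), *Bri3bp* (0.97), *Trim37* (0.97), and *Sod2* (0.97). The most opposite were *Chpt1*, *Fam126a*, *Cnot6*, *Sall1*, and *Cd164*, from -0.96 to -0.95. In all, 135 genes were above 0.9 and 43 below -0.9.

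*Nrgn* was low in the 3 libraries with the highest *Gfap* and the highest summed microglial genes. *Gfap*, the intermediate filament gene of astrocytes, chosen here after its values were seen, had 1415 and 1060 CPM in the WT-labelled BCAS libraries of days 7 and 10 and 427 CPM in the TRPA1-KO-labelled library of day 14, against 157 to 234 CPM in the other 5 libraries. The 8 microglial genes of the list summed to 933, 569, and 459 CPM in those 3 libraries, in the same order, and to 332 to 369 CPM in the other 5. The 10 astrocyte genes, led per length by the glutamate transporter gene *Slc1a2* and including *Gfap*, summed to 6146, 5763, and 5656 CPM in the 3 libraries and to 4388 to 4810 CPM in the others. Without *Gfap* the other 9 summed to 4731, 4703, and 5229 CPM against 4221 to 4610 CPM. Oligodendrocyte genes summed to 13696, 13562, and 15022 CPM in the 3 libraries, within the range of the other 5. None of the microglial or astrocyte genes was at 0 in any library. The library highest in *Gfap* and in the microglial sum, WT-labelled BCAS on day 7, was also lowest for *Slc17a7*, *Neurod6*, and *Tbr1*, and highest for *Rorb*. *Camk2a* was within 2076 to 2319 CPM in the 3 libraries and within 2249 to 2625 CPM in the other 5. The part of these cell types in the *Nrgn* values was not tested.

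**Figure D4:**
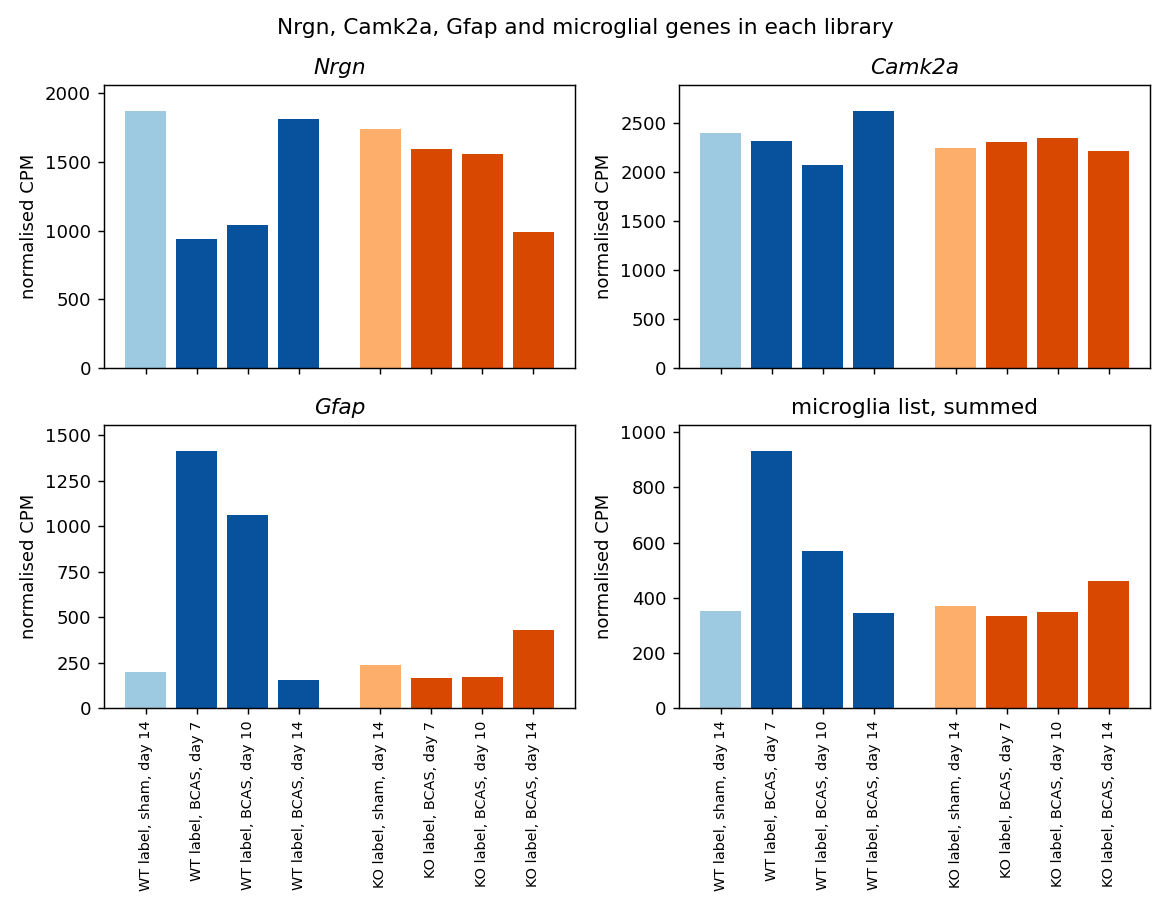
Normalised CPM (vertical axes, starting at 0) of *Nrgn*, *Camk2a*, *Gfap*, and the sum of 8 microglial genes, with 1 bar per library colored by label and operation. *Nrgn* is at 937 to 1044 CPM in the 3 libraries where *Gfap* is at 427 CPM or more, while *Camk2a* stays between 2076 and 2625 CPM in all 8.

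A list of other genes of cortical excitatory neurons held 25 measured genes, led per length by *Pcp4*, a calmodulin regulator of deep-layer neurons, at 296 ± 47.0 CPM per kb (SD, n = 8). Between BCAS libraries of the 2 labels, 0 were higher and 1 lower at an unadjusted limma p under 0.05 (*Rspo1*, a Wnt pathway agonist, -0.52), 1 of 25 where 4.2% of all genes passed. Against sham with the WT label, 2 were higher and 4 lower, 6 of 25 where 5.45% of all genes tested passed. The 4 with the smallest p were *Bcl11b*, a factor of subcerebral projection neurons that is also strong in striatal neurons (-0.46, SE 0.13), *Pcp4* (-0.44, SE 0.13), *Neurod1* (0.48), and *Rasgrf2* (0.30). With the TRPA1-KO label, 1 was higher (*Rspo1*, 0.73) and 1 lower (*Pcp4*, -0.30), where 2.74% of all genes passed. Over all 4 libraries of each label, 1 was higher (*Bcl6*, 0.24), where 3.94% of all genes passed. None of the 25 passed after adjustment in any of the 4 comparisons, and the medians, in that order, were -0.07, 0.0082, 0.05, and -0.04. *Bcl11b* and *Pcp4* are shared with the striatum, so they do not mark cortex alone.

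Genes of excitatory synapses form a list of 16, of which *Slc17a7*, *Camk2a*, and *Nrgn* are 3 of the 9 genes above. In each of the 4 comparisons 0 of the 16 had an unadjusted limma p under 0.05, where 4.2%, 5.45%, 2.74%, and 3.94% of all genes did, with medians of -0.08 between BCAS libraries of the labels, -0.07 and -0.0071 against sham with the WT and the TRPA1-KO label, and -0.03 between all libraries of the labels. Their summed level was lowest in the WT-labelled BCAS library of day 7 (8947 CPM) and highest in that of day 14 (11728 CPM).

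Beside other neuronal lists, the summed level of the 9 genes ranged from 4696 CPM (WT-labelled BCAS, day 7) to 6295 CPM (WT-labelled BCAS, day 14), a 1.34-fold span. Most of this sum, 5422 CPM on average, came from *Camk2a*, *Nrgn*, and *Slc17a7*, with means of 2317, 1444, and 1197 CPM. *Nrgn* alone spanned 2.0-fold, so the span of the sum does not describe the 9 genes evenly. The 25 other cortical genes spanned 1.18-fold, 12 inhibitory neuron genes 1.16-fold, and 14 pan-neuronal genes 1.28-fold, each with its lowest sum in the same WT-labelled library of day 7. The 10 genes of striatal projection neurons, led per length by *Ppp1r1b*, a dopamine-regulated phosphatase inhibitor, spanned 2.54-fold, from 983 CPM in that library to 2497 CPM in TRPA1-KO-labelled sham. Against sham, 10 of these 10 genes were lower at an unadjusted limma p under 0.05 with the WT label and 9 of 10 with the TRPA1-KO label (medians -0.85 and -0.55), where 5.45% and 2.74% of all genes tested passed in either direction, with 0 after adjustment, and the 2 comparisons share the sham libraries. The striatal sum was 1861 CPM in WT-labelled and 2497 CPM in TRPA1-KO-labelled sham. In BCAS on days 7, 10, and 14 it was 983, 1391, and 1255 CPM (WT label) and 1078, 1704, and 1680 CPM (TRPA1-KO label). All BCAS sums were below both sham sums. *Drd2* had 42.1 and 40.9 CPM in TRPA1-KO-labelled BCAS on days 10 and 14, above the 35.7 CPM of WT-labelled sham. The striatal counts were not repeated with a library left out. Between BCAS libraries of the labels 1 striatal gene was lower at that threshold (*Penk*, -0.47), where 4.2% of all genes passed. Over all libraries 0 passed, where 3.94% of all genes did. In both comparisons all 10 had a lower mean with the WT label, with medians of -0.29 and -0.28. The 9 cortical genes had 0 of 9 lower at that threshold in both comparisons with sham, in the main fit. *Nrgn* was lower at it with both labels when the WT-labelled BCAS library of day 14 was left out. With the WT label it also was with a pseudocount of 0.1 or without the TRPA1-KO-labelled BCAS library of day 14. No test of the difference between the lists was made. Ratios of *Slc17a7* to *Gad1*, the main enzyme of GABA synthesis, in CPM ran from 2.94 in the WT-labelled BCAS library of day 7 to 4.07 in that of day 10, with 3.76 and 3.41 in the WT-labelled and TRPA1-KO-labelled sham libraries.

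**Figure D5:**
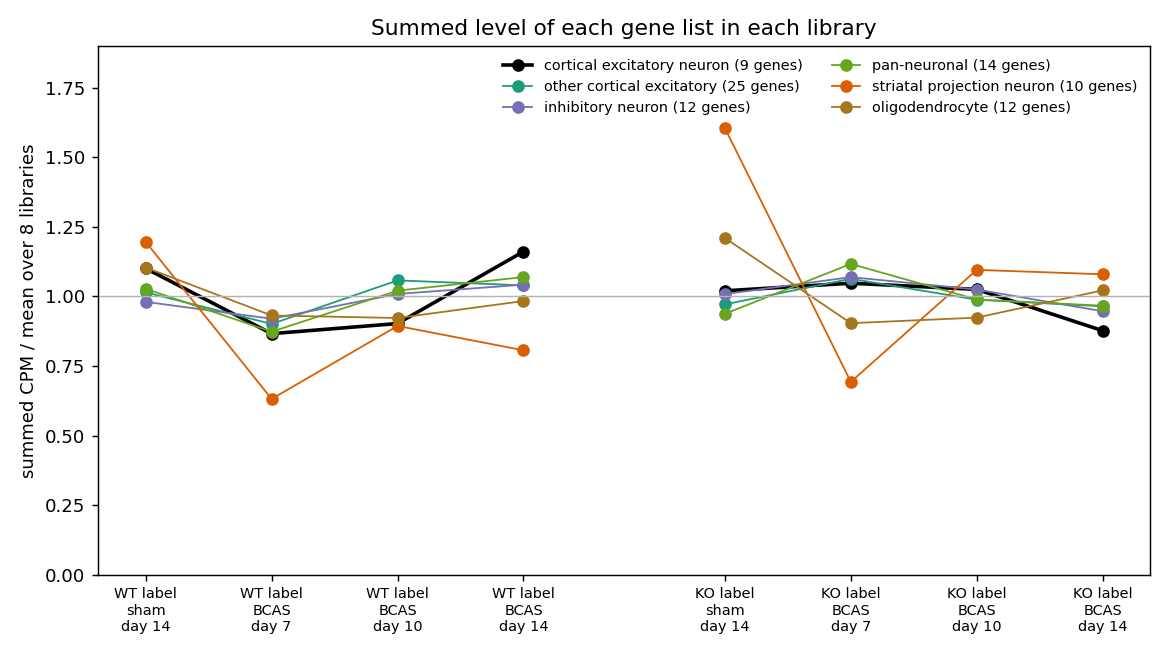
Summed CPM of each gene list divided by its mean over the 8 libraries (vertical axis, starting at 0), with 1 point per library and lines joining the 4 libraries of a label. The 9 cortical excitatory genes, whose sum comes mostly from *Camk2a*, *Nrgn*, and *Slc17a7*, span 1.34-fold and the striatal list 2.54-fold.

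Inhibitory and pan-neuronal genes were tested in the same fits. Of the 12 inhibitory genes 0, 0, and 0 passed an unadjusted limma p of 0.05 between the labels in BCAS, with the WT label against sham, and over all libraries (4.2%, 5.45%, and 3.94% of all genes), and 1 was higher with the TRPA1-KO label against sham (*Vip*, a neuropeptide gene, 0.44), where 2.74% of all genes passed. Of the 14 pan-neuronal genes 0 passed in any of the 4 comparisons.

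Genes of other glutamatergic neurons were also measured. *Slc17a6*, the transporter gene VGLUT2 of thalamic and other subcortical neurons, had 7.82 to 14.5 CPM, and per kb *Slc17a7* exceeded it by 86.6-fold to 158-fold. Of the 8 genes of thalamic and other glutamatergic neurons 0 passed an unadjusted limma p of 0.05 in any comparison, where 2.74% to 5.45% of all genes did, and *Gbx2*, a thalamic factor, was at 0 in 3 libraries, while *Rora*, a nuclear receptor gene, had 52.2 to 69.3 CPM. The 10 hippocampal genes summed to 128 to 162 CPM. Among them *Wfs1* had 38.4 to 52.9 CPM, *Man1a* 27.5 to 42.0, *Prox1* 26.2 to 35.6, and *Grik4* 19.6 to 28.2 CPM. The granule cell gene *C1ql2* had at most 3.82 CPM, *Dsp* at most 1.0 CPM with 0 in 5 libraries, and *Spink8* and *Lct* at most 1.1 and 1.28 CPM. Of this list, 1 gene, *Fibcd1*, was lower with the WT label against sham (-0.63), 1 of 10 where 5.45% of all genes passed.

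Genes of glia and vessels moved beside the 9 genes as follows. The 12 oligodendrocyte genes had 6 lower and 0 higher against sham with the WT label (*Ermn* -0.40, and *Mal* -0.34), and 5 lower with the TRPA1-KO label, of which *Mog*, a myelin surface protein gene, passed after adjustment (-0.73, SE 0.08, limma adjusted p = 0.046). That call, the only one of all genes in that comparison, did not hold without the filter, with equalized library medians, with the same-label sham library alone, or with 7 of the 8 libraries left out in turn (all but the WT-labelled BCAS library of day 7), while the difference stayed between -0.66 and -0.80 in all of these fits. At an unadjusted p under 0.05, 5.45% and 2.74% of all genes passed in these comparisons with the WT and the TRPA1-KO label, 4.2% between BCAS libraries of the labels, and 3.94% over all libraries. Between BCAS libraries of the labels 1 was higher (*Mog*, 0.51) and 1 lower (*Opalin*, -0.29), and over all libraries the same numbers, 1 and 1. Their sum ran from 13288 CPM in the TRPA1-KO-labelled BCAS library of day 7 to 17789 CPM in TRPA1-KO-labelled sham, the sham library that was lowest for 4 of the 9 genes and highest for the striatal list. The microglial genes had 2 higher between BCAS libraries of the labels and 2 higher with the WT label against sham, the astrocyte genes 1 and 1 (*Aldh1l1* in both), the 6 endothelial genes 2 and 1, the 6 meningeal fibroblast genes 0 and 1, and the 7 ependyma and choroid plexus genes 0 and 0. With the TRPA1-KO label against sham the first 4 of these lists had 0 genes and the ependyma and choroid plexus list 1 higher gene (*Kl*, 0.51, at no more than 1.77 CPM). Over all libraries 1 endothelial gene (*Ly6c1*, 0.26) was higher and the other 4 lists had 0. None of the genes of these 5 lists passed after adjustment. The part of these cell types in the values of the 9 genes was not tested.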

How the data were processed

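Polyadenylated RNA was sequenced on an Illumina NovaSeq. The authors used HISAT (2.1.0) against GRCm38 for alignment, subread (2.0.1) for counting, and edgeR (3.34.1) for normalization. The deposited signal is normalised CPM per gene, not log-transformed. Annotation, strand setting, and gene filter are not given in the sources used here. All values (100%) were whole multiples of 1 read's value within 0.01, so reads were recovered, 7896071 to 12952093 per library.

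The values went through limma (3.58.1, lmFit, and eBayes with a trend, in R 4.3.3) as log2(CPM + 1). Of 25239 genes, 18123 reached a mean of 0.1 CPM and were tested, with Benjamini-Hochberg adjustment over all of them. Differences between groups are on this scale, which understates changes of low genes. The BCAS groups were compared in 6 libraries, and comparisons with sham used all 8 in 1 fit of 3 groups. Exact two-sided permutation tests in scipy version 1.17.1 covered single genes. Recovered reads were also tested with edgeR version 4.0.16 and DESeq2 version 1.42.0. After adjustment, limma called 3, 0, 1, and 9 genes of the table in the 4 comparisons in the order of the text, and edgeR called 2, 0, 1, and 9. Other alternatives were a pseudocount of 0.1, no filter, a minimum mean of 1 CPM, equalized library medians, the day as replicate block, 1 fit of 4 groups, only the sham library of the same label, and each library left out.

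Exon lengths (24321 symbols matched) came from GENCODE for GRCm38 and promoter windows from RefSeq (8 of the 9 genes matched). The 9 genes and all gene lists were chosen with earlier results of these data known. All 9 genes are named; of each list, the count with an unadjusted p under 0.05 in each direction and at most 4 passing genes with the smallest p, unless said otherwise, and the 5 genes most and least like the 9 over the libraries.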

Additional observations from a re-analysis of the deposited data

Results flagged for a closer look

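Within the 4 libraries of each label, 20 sets of values (the 9 genes and their sum, for both labels) were checked for a single library far from the other 3, and 3 stood apart, where chance would mark about 1 in 20. *Neurod6* had 45.0 CPM in the WT-labelled BCAS library of day 7, against 73.2 to 78.6 CPM in the other 3 libraries of that label. *Fezf2* had 51.8 CPM in the WT-labelled BCAS library of day 14, against 39.7 to 41.5 CPM in the others. The 9 genes summed to 4755 CPM in the TRPA1-KO-labelled BCAS library of day 14, against 5531 to 5679 CPM in the others, with *Nrgn* at 986 CPM against 1557 to 1743 CPM, and *Slc17a7* (1101 CPM against 1131 to 1251 CPM) and *Camk2a* (2217 CPM against 2249 to 2344 CPM) also lowest of that label there. Each is 1 library.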

How the results depend on the processing

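None of the 9 genes passed an adjusted p of 0.05 under any of 531 combinations of gene, comparison, and alternative (smallest 0.10), and 485 of these kept their direction. Genes of the whole table with an adjusted p under 0.05 between BCAS libraries of the labels numbered 3, but 1 without the filter, 17 with DESeq2, and 1 with the day as replicate block, under which 632 genes had an unadjusted p under 0.05 and 0 of the 9 genes did. Same-day libraries of the labels had correlations of deviations of -0.10, 0.0051, and -0.26, and libraries of different days had -0.13 to 0.19. With 3 libraries per label, each taken from their own mean, these values cannot decide whether the days pair the labels. For all 4 libraries of each label the block gave 6 genes. With the WT label against sham, the count of the 9 genes with an unadjusted p under 0.05 was 2 with a pseudocount of 0.1 and 0 with the same-label sham library alone (359 genes of the table, in place of 988), and DESeq2 gave 24 genes after adjustment, in place of 0. With the TRPA1-KO label, DESeq2 and equalized medians gave 0 of the 9, where 254 (1.4%) and 433 (2.39%) of all genes passed, in place of 496. The count after adjustment, 1 gene (*Mog*), became 0 without the filter and with equalized medians, and 4 with DESeq2. Small differences reversed: *Neurod2* (-0.0016 with DESeq2, -0.0104 with equalized medians) and *Rorb* (-0.017 with equalized medians) between the labels, *Slc17a7* (-0.027) and *Camk2a* (-0.044) with the WT label and *Camk2a* (0.025) with the TRPA1-KO label against the same-label sham, and *Camk2a* (-0.0085) with equalized medians. The cause was not tested.

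With each library left out in turn, genes of the table with an unadjusted p under 0.05 numbered 325 to 1846 between BCAS libraries of the labels, 357 to 2013 with the WT label against sham, 191 to 735 with the TRPA1-KO label against sham, and 490 to 1064 for all libraries of the labels. After adjustment they numbered 1 to 29, 0 to 45, 0 to 1, and, for all libraries of the labels, 6 to 14. The counts of 1846 and 29 and of 2013 and 45 came without the WT-labelled BCAS library of day 14. Of the 9 genes, 0 to 1, 0 to 2, 0 to 1, and 0 to 1 had an unadjusted p under 0.05 in these 4 comparisons. Between BCAS libraries of the labels the log2 difference ran from -0.047 to 0.15 for *Slc17a7*, -0.31 to 0.083 for *Neurod6*, -0.051 to 0.11 for *Neurod2*, -0.12 to 0.080 for *Tbr1*, -0.10 to 0.085 for *Rorb*, -0.038 to 0.16 for *Fezf2*, -0.060 to 0.11 for *Camk2a*, and -0.45 to 0.031 for *Nrgn*. With the WT label against sham it ran from -0.043 to 0.16 for *Slc17a7*, -0.27 to 0.13 for *Neurod6*, and -0.083 to 0.087 for *Camk2a*, and with the TRPA1-KO label from -0.058 to 0.066, -0.061 to 0.15, and -0.070 to 0.025. For all libraries of the labels it ran from -0.15 to 0.11 for *Neurod6*, -0.0095 to 0.14 for *Neurod2*, -0.054 to 0.079 for *Tbr1*, -0.030 to 0.12 for *Rorb*, -0.011 to 0.10 for *Camk2a*, and -0.27 to 0.086 for *Nrgn*. The other differences kept their direction with any library left out, though some shrank or grew by over 1.5 times. A group left with 1 sham library is assumed to vary like the other groups. With 1 library per day and label, differences between days have no replicates, and the 2 sham libraries limit every comparison with sham.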
